A study of Mus musculus with 6 samples.

Results

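The oligodendrocyte precursor genes described here are Cspg4, Pdgfra, Gpr17, Olig1, Olig2, Sox10, C1ql1 and Neu4, 8 of the 22086 genes counted. They were chosen by the known role of these genes and, for Cspg4, selected on its higher counts in Cx43KO in this very contrast. A gene was read from the one of its transcripts that had the most counts over the 6 libraries. All 8 passed the filter on low counts, which kept 13545 genes, Cspg4 only through its Cx43KO libraries. Polysomal mRNAs of hippocampal astrocytes were recovered at 6 weeks of age by translating ribosome affinity purification (TRAP), in which eGFP-tagged ribosomes are immunoprecipitated, in 3 independent Cx43FL and 3 independent Cx43KO libraries. All mice carried the Aldh1L1-RPL10aGFP transgene and floxed alleles of Cx43 (Cx43 fl/fl), the gap junction protein encoded by Gja1, and the Cx43KO mice carried a Gfap Cre transgene in addition. The tag is driven by the Aldh1l1 promoter, so that ribosomes of cells other than astrocytes are not its target. The human GFAP promoter that drives the Cre is known to be active in radial glia, which also give rise to neurons and oligodendrocyte lineage cells. How many mice contributed to a library is not given in the sources used here, so p-values measure the spread between libraries.

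Oligodendrocyte precursor cells are the dividing glial cells that tile the adult brain and give rise to myelinating oligodendrocytes. They carry the proteoglycan NG2, encoded by Cspg4, and the receptor of platelet-derived growth factor (PDGF), encoded by Pdgfra, and are specified by Olig1, Olig2 and Sox10. Neither surface protein is unique to them. NG2 is also found on pericytes and on some activated macrophages, and Pdgfra on perivascular fibroblasts. Olig2 is also expressed by a subset of astrocytes. In this study Cspg4 also served as an oligodendrocyte marker when the purity of the extracts was assessed.

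Total counts on transcripts lay between 33423491 and 34921942 in Cx43FL and between 36869534 and 77030398 in Cx43KO, every Cx43KO library being deeper. The floor of detection was taken as 3 counts, or 0.0864 to 0.203 counts per M (CPM) before scaling, for counting error only. Cx43KO replicate 1 stood apart from the other libraries, at 123 on the first principal component (41.0% of the variance) against -50.7 to -0.423, and values without it are given for those of the 8 genes, and of the other named genes, whose sign turns without it. The targeted gene, Gja1, had 82.3 to 92.0 CPM in Cx43FL against 87.2 to 98.4 CPM in Cx43KO, and so went against the label in not being lower. Whether its counted reads lie within the deleted stretch cannot be seen from the counts, and Cx43KO hereafter means the libraries labelled so, also wherever a direction is given. The summed level of 14 astrocyte genes ranged from 28390 to 31520 CPM in Cx43FL, against 14390 to 44360 CPM in Cx43KO, the lowest being Cx43KO replicate 1. Neuron genes (14 genes) summed to 2186 to 2898 CPM in Cx43FL and to 7779, 3032 and 4327 CPM in Cx43KO replicates 1 to 3, without overlap. The numbers under which the libraries were filed form separate ranges by genotype. What these numbers stand for is not given in the sources used here, and any batch they mark cannot be told apart from genotype.

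These genes lie on separate chromosomes except for Olig1 and Olig2. Cspg4 (chromosome 9 of GRCm38, 56865033 to 56899870, + strand) has 10 exons and a counted transcript of 8121 bases, the longest of the 8. Pdgfra (chromosome 5, 75152292 to 75198215, + strand) has 23 exons, and its 2 counted transcripts had the same counts in every library. Olig2 (chromosome 16, 91225457 to 91228677, + strand) and Olig1 (chromosome 16, 91269772 to 91271933, + strand, a single exon) are neighbours 41.1 kb apart. Sox10 (chromosome 15, 79154908 to 79165240) and C1ql1 (chromosome 11, 102939264 to 102946688) lie on the - strand, and Neu4 (chromosome 1, 94020451 to 94028334) is on the + strand. Olig1 shares 157 bases with the antisense transcript Gm15966. Whether counting used the strand is not given in the sources used here, so that reads of such shared stretches cannot be assigned to 1 gene.

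Promoters are shown for Cspg4, the gene whose libraries separated by genotype, and for Pdgfra and Olig2, whose libraries did not. RefSeq promoters (GRCm38.p6, 250 bases before to 50 after the start, + strand, 5′ to 3′) were matched for 4 of the 8 genes. Capitals mark CANNTG (the core bound by bHLH factors such as Olig1 and Olig2), ACAAT (a core bound by SOX factors), GGGCGG (the GC box) and TATAAA (the TATA box), each searched on both strands.
Cspg4, chr9:56864854-56865153: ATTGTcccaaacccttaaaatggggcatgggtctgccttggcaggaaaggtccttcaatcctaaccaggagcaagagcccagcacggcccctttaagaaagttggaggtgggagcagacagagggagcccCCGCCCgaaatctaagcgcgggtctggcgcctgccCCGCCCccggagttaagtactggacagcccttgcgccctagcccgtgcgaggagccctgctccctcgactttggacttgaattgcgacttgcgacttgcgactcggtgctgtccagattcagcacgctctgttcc
Pdgfra, chr5:75152001-75152300: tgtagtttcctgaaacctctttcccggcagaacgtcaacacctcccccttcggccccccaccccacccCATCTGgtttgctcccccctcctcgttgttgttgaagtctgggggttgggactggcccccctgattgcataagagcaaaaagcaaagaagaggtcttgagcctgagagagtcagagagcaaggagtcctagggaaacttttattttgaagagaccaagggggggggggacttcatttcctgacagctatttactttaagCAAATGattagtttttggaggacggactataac
Olig2, chr16:91225300-91225599: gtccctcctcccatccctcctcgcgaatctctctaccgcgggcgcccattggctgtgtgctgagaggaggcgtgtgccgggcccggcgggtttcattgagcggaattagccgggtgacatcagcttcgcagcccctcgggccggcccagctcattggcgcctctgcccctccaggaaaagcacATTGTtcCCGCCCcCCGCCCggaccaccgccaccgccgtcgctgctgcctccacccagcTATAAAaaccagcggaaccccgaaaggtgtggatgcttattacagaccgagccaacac
The Cspg4 window held 0 CANNTG, 1 ACAAT, 2 GGGCGG and 0 TATAAA, and was 60.0% GC. The Olig2 window held 0 CANNTG, 1 ACAAT, 2 GGGCGG and 1 TATAAA, and was 65.0% GC. The Pdgfra window held 2 CANNTG and none of the other letters, and was 51.0% GC. Of 32851 promoters of this length, 72.3% held CANNTG, 31.0% ACAAT, 35.7% GGGCGG and 13.6% TATAAA. These matches describe the letters in the windows and no binding was measured.

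Per length of transcript, Olig1 and Olig2 had the highest mean levels of the precursor genes in both genotypes. In Cx43FL, Olig1 had a mean level of 68.2 CPM per kb and Olig2 of 18.3 CPM per kb, and the ranges of the libraries, 60.9 to 74.2 and 13.4 to 23.5, did not overlap with each other. Olig1 stood at percentile 92.2 of all tested genes on this scale, and Olig2 at percentile 64.6. Sox10 (3.70 CPM per kb), C1ql1 (2.78), Pdgfra (2.05), Neu4 (1.77) and Gpr17 (1.39) followed in Cx43FL, each overlapping with the next in its library values. Cspg4 was last, with 0.027 CPM per kb and at most 0.049 in a Cx43FL library, below every library of the other genes. In Cx43KO the order began with Olig1 (80.8 CPM per kb), Olig2 (10.6) and Sox10 (4.0) and ended with Cspg4 (0.845) and Neu4 (0.747). The Cx43KO libraries of Olig2 (3.19 to 21.6 CPM per kb) and Sox10 (2.06 to 7.41) overlapped, and in replicate 1 Sox10 was above Olig2. Cspg4 ranged there from 0.307 to 1.87 CPM per kb and overlapped with Neu4, Gpr17 and C1ql1, but remained below Pdgfra, whose lowest library had 2.04.

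Cspg4, which encodes NG2, a transmembrane proteoglycan, was close to the floor in Cx43FL and counted in every Cx43KO library. In replicates 1 to 3, its counts were 4, 6 and 0 for Cx43FL and 245, 62 and 93 for Cx43KO. Every Cx43KO library was thus above every Cx43FL library, and 245 of the 400 Cx43KO counts came from replicate 1. Scaled by TMM, these were 0.264, 0.398 and 0 CPM in Cx43FL against 15.2, 2.49 and 2.87 CPM in Cx43KO. The normalized count, that is the count brought to a common library size by TMM, averaged 4.37 ± 4.02 for Cx43FL and 136 ± 144 for Cx43KO (SD, n = 3 each). On the log2 scale the fold change reached 4.92 ± 1.46 (SE), and 3.56 without Cx43KO replicate 1. This contrast put Cspg4 in the set, so these values are a description and carry no test. Of all tested genes, 0.155% had a log2 fold change as high as that of Cspg4, and 8.08% had every Cx43KO library above every Cx43FL library (13.9% without Cx43KO replicate 1).

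Pdgfra, the receptor that drives precursor division in response to PDGF-A, had overlapping libraries. It had 199, 200 and 215 counts in Cx43FL against 251, 332 and 559 counts in Cx43KO, or 13.1, 13.3 and 14.0 CPM and 15.6, 13.3 and 17.3 CPM. Cx43KO replicate 2 lay among the Cx43FL libraries and the other two above them. Pdgfra had the smallest spread of the set, with a coefficient of variation of 3.55% in Cx43FL against 12.8% in Cx43KO. Counting alone gives 6.99% and 5.13%, so the spread seen between the Cx43FL libraries was below counting error. The log2 fold change of Pdgfra was 0.19 ± 0.51 (SE), with a 95% interval from -0.92 to 1.31. The quasi-likelihood test of edgeR gave an adjusted p of 0.925 (Benjamini-Hochberg, over all tested genes). The ratio of Cspg4 to Pdgfra in CPM was 0.0201, 0.0300 and 0 in Cx43FL against 0.976, 0.187 and 0.166 in Cx43KO. Both genes were therefore at a similar CPM in Cx43KO replicate 1 and apart in the other libraries.

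Gpr17 encodes a G protein-coupled receptor carried by precursors that have begun to differentiate. The gene (chromosome 18, 31942997 to 31949636, - strand) lies within the span of Lims2 on the opposite strand and shares 188 bases of exon with it, 3.6% of its transcript. It had 7.97, 4.05 and 9.57 CPM in Cx43FL against 15.5, 6.47 and 2.07 CPM in Cx43KO. The Cx43KO libraries were spread on both sides of the Cx43FL libraries, with replicate 1 the highest and replicate 3 the lowest of the 6. The log2 fold change was 0.15 ± 0.85 (SE, edgeR adjusted p = 0.972), with a 95% interval from -1.72 to 2.01, and -0.75 without Cx43KO replicate 1.

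**Figure D1:**
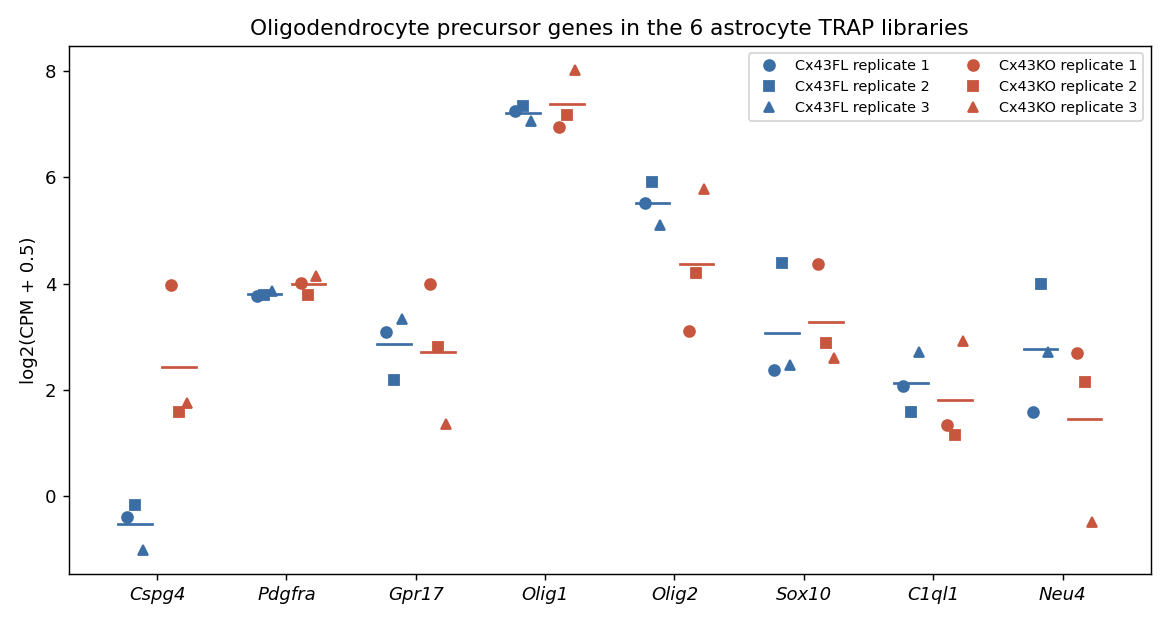
Level of the 8 oligodendrocyte precursor genes on the log2(CPM + 0.5) scale, 1 symbol per library, with a bar at the mean of each genotype (n = 3 libraries each). Cspg4 is the gene whose Cx43KO libraries all lie above its Cx43FL libraries, and the symbols of both genotypes overlap for the other 7.

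Olig1 and Olig2 are basic helix-loop-helix factors that specify the lineage, and Sox10 is the HMG-box factor that follows them and activates myelin genes. Olig1 had 150, 160 and 132 CPM in Cx43FL against 122, 144 and 258 CPM in Cx43KO. Cx43KO replicate 1 was the lowest and replicate 3 the highest of the 6 libraries. For Olig1 the log2 fold change was 0.24 ± 0.33 (SE, edgeR adjusted p = 0.836), with a 95% interval from -0.48 to 0.97, and -0.15 without Cx43KO replicate 3.

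Olig2 had 45.2, 59.6 and 33.9 CPM in Cx43FL against 8.07, 18.0 and 54.6 CPM in Cx43KO. Cx43KO replicates 1 and 2 were below every Cx43FL library, whereas replicate 3 lay within their range. Olig2 thus had a log2 fold change of -0.78 ± 0.61 (SE, edgeR adjusted p = 0.711), with a 95% interval from -2.13 to 0.57. It was -1.82 without Cx43KO replicate 3 and -0.36 without replicate 1. The ratio of Olig2 to Olig1 in CPM was 0.301, 0.372 and 0.258 in Cx43FL against 0.0660, 0.125 and 0.212 in Cx43KO. The 3 Cx43KO ratios were all below the 3 Cx43FL ratios. This ratio was picked after the values had been seen and was not tested.

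Sox10 had 4.68, 20.4 and 5.02 CPM in Cx43FL against 20.1, 6.83 and 5.59 CPM in Cx43KO. One library of each genotype, Cx43FL replicate 2 and Cx43KO replicate 1, was about as high as the other, and the remaining 4 lay close together. The coefficient of variation was 89.6% for Cx43FL and 74.2% for Cx43KO, where counting alone gives 8.11% and 6.67%. The log2 fold change was 0.11 ± 0.81 (SE, edgeR adjusted p = 0.980), with a 95% interval from -1.67 to 1.88. It was 1.14 without Cx43FL replicate 2 and -0.70 without Cx43KO replicate 1.

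C1ql1 encodes a secreted C1q-like protein that binds the adhesion receptor Adgrb3, and Neu4 a sialidase, an enzyme that removes sialic acid. C1ql1 had 3.69, 2.52 and 6.06 CPM in Cx43FL against 2.05, 1.73 and 7.04 CPM in Cx43KO. The libraries overlapped, Cx43KO replicates 1 and 2 being the lowest and replicate 3 the highest. Its log2 fold change was -0.18 ± 0.98 (SE, edgeR adjusted p = 0.972), with a 95% interval from -2.34 to 1.98, and 0.097 without Cx43KO replicate 1. Neu4 had 38, 232 and 93 counts in Cx43FL against 96, 98 and 7 counts in Cx43KO, or 2.50, 15.4 and 6.06 CPM and 5.96, 3.94 and 0.216 CPM. Cx43FL replicate 2 was the highest and Cx43KO replicate 3 the lowest, 71.2-fold apart, the widest range of the 7 genes with counts in every library. Neu4 thus had a log2 fold change of -1.25 ± 1.14 (SE, edgeR adjusted p = 0.747), with a 95% interval from -3.75 to 1.26, and -0.36 without Cx43FL replicate 2.

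Apart from Cspg4, 0 of 7 precursor genes were called at an adjusted p below 0.05 with a mean normalized count above 50, and 0 of 7 had an unadjusted p below 0.05. Over all tested genes 1 was called higher (0.00738%) and 0 lower, and 5.66% were higher and 2.67% lower at an unadjusted p below 0.05. DESeq2 with its normal prior on the same genes called 0 of these 7 and 99 higher (0.731%) and 14 lower (0.103%) of all. In 0 of 7 were the libraries of both genotypes separated, against 8.08% of all genes with every Cx43KO library above and 7.45% with every one below. Without Cx43KO replicate 1 this was again 0 of 7, against 13.9% above and 12.3% below. The fold change was positive in 4 of the 7, against 54.4% of all genes. The exact 2-sided permutation p on log2(CPM + 0.5) ranged from 0.2 for Pdgfra to 0.9 for Olig1 and Gpr17, the smallest possible being 0.1. The intervals above show that for Sox10, Gpr17, C1ql1 and Neu4 a 2-fold change in either direction was not excluded at this spread. For Pdgfra a 2-fold rise and for Olig2 a 2-fold fall were not excluded either. Only the interval of Olig1 lay within a 2-fold change both ways.

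**Figure D2:**
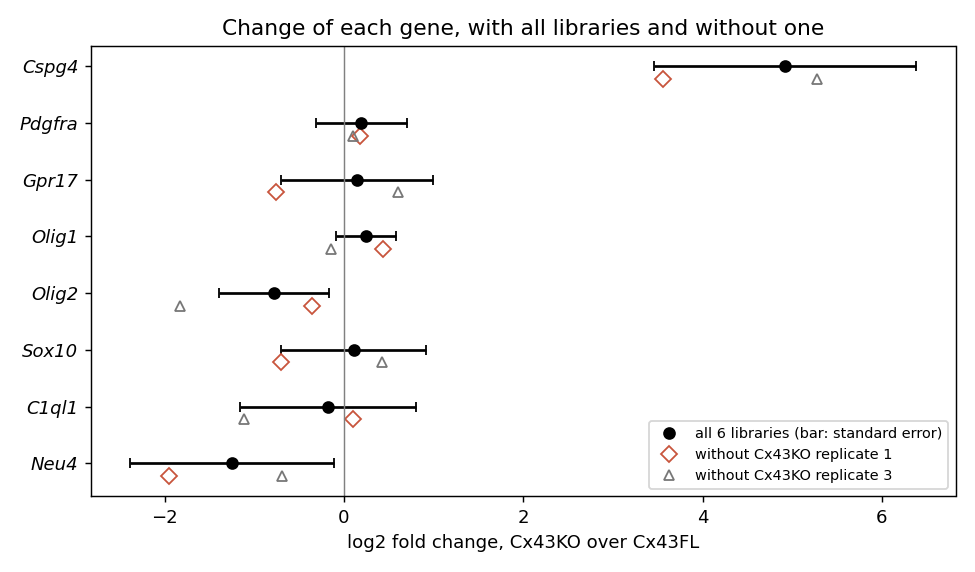
Log2 fold change of each precursor gene in Cx43KO over Cx43FL, filled symbols with the standard error for all 6 libraries (n = 3 each) and open symbols without Cx43KO replicate 1 or without replicate 3. Cspg4 stays at 3.56 or more, whereas Gpr17, Sox10, Olig1 and C1ql1 change sign when 1 of these libraries is left out.

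The genes did not share 1 order of the libraries. Cx43KO replicate 3 had the highest level of Pdgfra, Olig1 and C1ql1 and the lowest of Gpr17 and Neu4, and Cx43KO replicate 1 had the highest of Cspg4 and Gpr17 and the lowest of Olig1 and Olig2. Cx43FL replicate 2 had the highest level of Olig2, Sox10 and Neu4. The ratio of Neu4 to Gpr17, both genes of precursors entering differentiation, was 3.80 in Cx43FL replicate 2 and between 0.104 and 0.633 in the other libraries. For Sox10, Gpr17, C1ql1 and Neu4 the coefficient of variation within a genotype was 39.5% to 89.6%, against 6.67% to 12.7% from counting alone. The summed level of the 8 genes was 228, 276 and 206 CPM in Cx43FL against 205, 196 and 348 CPM in Cx43KO, with overlap of both genotypes. Olig1 made up 58.1% to 74.2% of that sum, and Cspg4 0% to 0.144% in Cx43FL against 0.826% to 7.43% in Cx43KO. In these bulk extracts, fewer cells of a type and less RNA per cell cannot be told apart.

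In a wider list of precursor genes, 19 of 23 were tested and 0 were called. edgeR called 0.00738% of all genes higher and 0 lower, so 0 calls say little of this list or of those below. Of the 19, 2 were higher and 0 lower at an unadjusted edgeR p below 0.05, against 5.66% and 2.67% of all genes. Every Cx43KO library was above every Cx43FL library in 3 and below in 1, against 8.08% and 7.45%. The median log2 fold change was 0.15, and -0.001 without Cx43KO replicate 1. Over all genes these medians were 0.071 and -0.002. Ptprz1, a receptor phosphatase also made by astrocytes, had 145 to 222 CPM in Cx43FL against 160 to 345 CPM in Cx43KO and its log2 fold change was 0.44 ± 0.34 (SE). Vcan, a proteoglycan of the matrix around precursors, had 7.25, 1.39 and 7.88 CPM in Cx43FL against 16.1, 1.77 and 0.494 CPM in Cx43KO. Its log2 fold change of 0.15 ± 1.20 (SE) became -2.28 without Cx43KO replicate 1. Tnr, which encodes tenascin-R, had 10.9, 1.39 and 7.16 CPM in Cx43FL against 62.2, 15.8 and 24.5 CPM in Cx43KO, with every Cx43KO library higher. Its log2 fold change was 2.4 ± 0.78 (SE, edgeR adjusted p = 0.538), and Lims2, which overlaps Gpr17, had one of 2.10 ± 1.37 (SE). The lowest of the list were S100a3, at -2.27 ± 1.73 (SE), and Cdo1, at -0.51 ± 0.40 (SE).

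Among 15 other tested transcription factors of the lineage, 0 were called, against 0.00738% of all genes called higher. The median log2 fold change was -0.011, and -0.39 without Cx43KO replicate 1. Nkx2-2, a homeodomain factor of differentiating precursors, had 27.5, 12.4 and 22.9 CPM in Cx43FL against 13.7, 16.2 and 32.2 CPM in Cx43KO, a log2 fold change of -0.014 ± 0.53 (SE), and 0.21 without Cx43KO replicate 1. The highest were St18 at 0.77 ± 0.85 (SE) and Zfp488 at 0.66 ± 1.53 (SE), which became -1.09 and -3.04 without Cx43KO replicate 1. The lowest were Hes1 and Hes5, Notch effectors known to keep neural progenitors undifferentiated. Hes1 had 93.6, 104 and 59.4 CPM in Cx43FL against 6.46, 27.5 and 36.1 CPM in Cx43KO, every Cx43KO library being lower, and a log2 fold change of -1.87 ± 0.56 (SE, edgeR adjusted p = 0.492). Hes5 had a log2 fold change of -0.96 ± 0.49 (SE), with overlapping libraries.

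For later stages of the lineage, 13 genes of newly formed oligodendrocytes and 17 myelin genes were tested. edgeR called 0 of either list, against 0.00738% of all genes called higher. DESeq2 with its prior called 1 of the newly formed list higher, Nfasc, against 0.731% of all genes. For the newly formed list the median log2 fold change was 0.41, and 0.51 without Cx43KO replicate 1. In 4 of its 13 genes every Cx43KO library was above every Cx43FL library, and in 6 of 13 without that library, where 8.08% and 13.9% of all genes were. Bcas1, a marker of early myelinating cells, had 5.53, 5.17 and 6.25 CPM in Cx43FL against 41.8, 13.8 and 10.8 CPM in Cx43KO, every Cx43KO library being higher. Its log2 fold change was 1.97 ± 0.66 (SE, edgeR adjusted p = 0.540), and that of Enpp6, a choline phosphodiesterase, was 1.86 ± 0.83 (SE). Without Cx43KO replicate 1 these were 1.12 and 1.0. Fyn was the lowest of these genes, at -0.35 ± 0.30 (SE). Mbp, the myelin basic protein gene, had 25.8, 76.8 and 47.5 CPM in Cx43FL against 607, 127 and 58.9 CPM in Cx43KO. Cx43KO replicate 1 was far above the other libraries, which overlapped. The median log2 fold change of the myelin genes was 0.65, and -0.007 without Cx43KO replicate 1. The highest after Mbp was Fa2h, at 1.62 ± 0.88 (SE), and the lowest was Aspa, at -0.25 ± 0.65 (SE).

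The partners of the precursor genes were read from the same comparison. Of 5 other PDGF ligands and receptors, 0 were called, against 0.00738% of all genes called higher. Pdgfa, the ligand of Pdgfra made by neurons and astrocytes, had 16.5 to 19.0 CPM in Cx43FL against 18.4 to 25.8 CPM in Cx43KO, a log2 fold change of 0.26 ± 0.45 (SE). Pdgfb was the highest of them, at 0.99 ± 1.27 (SE), with Cx43KO replicate 1 at 11.8 CPM and the other libraries at 0.362 to 3.52 CPM. Its log2 fold change was -1.38 without that library. Of 9 tested proteins that bind NG2 or are bound by it, 0 were called, against that same share. Lgals3, the galectin-3 gene, had a log2 fold change of 2.0 ± 1.21 (SE) and Fgf2, the basic fibroblast growth factor gene, of 1.52 ± 0.62 (SE). The scaffold Sdcbp had one of -0.30 ± 0.30 (SE). Adgrb3, the receptor of C1ql1, had a log2 fold change of 0.43 ± 0.51 (SE), and -0.38 without Cx43KO replicate 1. That of C1ql2 was -0.20 ± 1.11 (SE), and C1ql4 had 0 counts in every library. Of the other sialidases, Neu1 had a log2 fold change of 0.30 ± 0.61 (SE), Neu3 of -0.36 ± 0.87 (SE) and Neu2 of -0.89 ± 1.30 (SE), and Neu1 was at -0.033 without Cx43KO replicate 1.

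**Figure D3:**
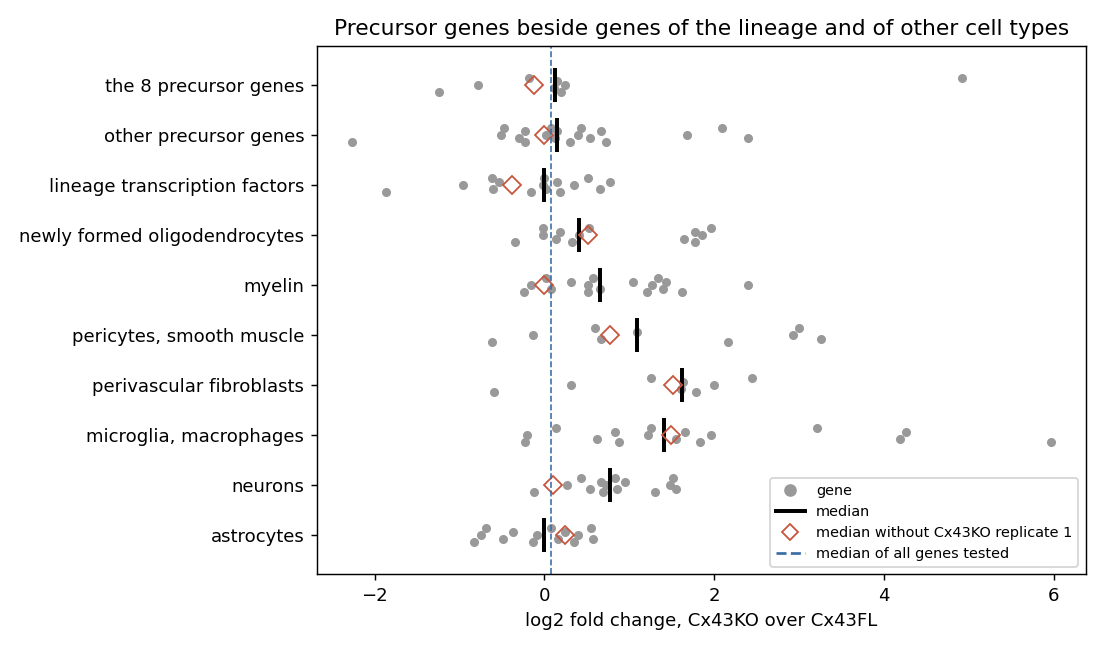
Log2 fold change in Cx43KO over Cx43FL of each tested gene (grey), by list, with the median over all libraries (bar), the median without Cx43KO replicate 1 (diamond) and the median of all tested genes (dashed line). The 8 precursor genes run from Neu4 at -1.25 to Cspg4 at 4.92 with a median of 0.13, and of the lists plotted those of pericytes, fibroblasts and microglia have medians above 1.

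Because Cspg4 and Pdgfra are shared with other cells, the markers of these cells were summed over the same libraries, leaving out the 8 genes. Pericyte and smooth muscle genes (9 of 14 tested) summed to 36.6 to 43.8 CPM in Cx43FL and to 45.7 to 104 CPM in Cx43KO, without overlap. Of these, 0 were called and 2 of 9 were separated upward, where 0.00738% of all genes were called higher and 8.08% separated upward. The median log2 fold change was 1.10, and 0.43 without Cx43KO replicate 3 or 0.78 without replicate 1. Pdgfrb, the receptor that defines pericytes, had 11.99, 5.24 and 10.6 CPM in Cx43FL against 15.8, 7.27 and 21.1 CPM in Cx43KO, with overlap, and a log2 fold change of 0.66 ± 0.64 (SE). Rgs5 had 12.1 to 18.0 CPM in Cx43FL against 62.3, 9.97 and 24.1 CPM in Cx43KO, a log2 fold change of 1.10 that was 0.18 without replicate 1. Abcc9 had 0.395, 0.332 and 2.15 CPM in Cx43FL against 5.53, 9.85 and 6.58 CPM in Cx43KO, every Cx43KO library being higher. Its log2 fold change was 2.92 ± 1.08 (SE, edgeR adjusted p = 0.544), and 3.09 without Cx43KO replicate 1. Anpep and Des were the highest, at 3.26 ± 1.36 (SE) and 3.0 ± 1.79 (SE). Tagln and Vtn were the lowest, at -0.62 ± 1.25 (SE) and -0.14 ± 0.76 (SE), and Kcnj8 had 0 counts in all 6 libraries. Vtn was at 0.17 without Cx43KO replicate 1.

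Microglia and macrophage genes (16 of 19 tested) summed to 38.6 to 75.6 CPM in Cx43FL and to 150 to 291 CPM in Cx43KO, without overlap. None was called by edgeR, and 6 of 16 were higher at an unadjusted p below 0.05, against 5.66% of all genes. DESeq2 with its prior called 4 of 16 higher, against 0.731% of all genes. In 7 of 16 every Cx43KO library was above every Cx43FL library, against 8.08% of all genes. The median log2 fold change was 1.41, and 1.5 without Cx43KO replicate 1. Itgam, which encodes CD11b, had 9, 0 and 3 counts in Cx43FL against 610, 209 and 135 counts in Cx43KO, and was, like Cspg4, highest in Cx43KO replicate 1. Lyz2 had 3.62, 1.19 and 1.63 CPM in Cx43FL against 7.76, 31.4 and 84.4 CPM in Cx43KO, with replicate 3 the highest. The log2 fold changes were 5.96 ± 1.33 (SE) for Itgam and 4.26 ± 0.87 (SE) for Lyz2. Cx3cr1, P2ry12 and Tmem119, which define resting microglia, had log2 fold changes of 0.13 ± 0.86 (SE), -0.20 ± 0.68 (SE) and -0.23 ± 1.46 (SE), Tmem119 being at 0.33 without Cx43KO replicate 1.

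Perivascular fibroblast genes (8 of 9 tested) summed to 98.4 to 210 CPM in Cx43FL and to 288 to 534 CPM in Cx43KO, without overlap, with a median log2 fold change of 1.62. Igf2 made up most of that sum, with 49.5 to 160 CPM in Cx43FL against 232 to 423 CPM in Cx43KO. Col1a2, a collagen chain, had the highest log2 fold change, 2.44 ± 0.87 (SE), followed by Lum at 2.0 ± 1.48 (SE). Col1a1 and Dcn were the lowest, at -0.60 ± 1.24 (SE) and 0.31 ± 0.64 (SE). Endothelial genes (7 of 10 tested) summed to 8.69 to 12.6 CPM in Cx43FL and to 15.7 to 23.0 CPM in Cx43KO, from -1.04 (Ly6c1) to 2.12 (Esam) on the log2 fold change scale. Neuron genes had a median log2 fold change of 0.77, and 0.095 without Cx43KO replicate 1, and astrocyte genes one of -0.005, and 0.24 without that library. Of the 8 fibroblast and 14 neuron genes, 3 and 5 were higher at an unadjusted edgeR p below 0.05, against 5.66% of all genes. In 2 and 3 of them every Cx43KO library was above every Cx43FL library, against 8.08%. DESeq2 with its prior called 1 gene of each list higher, against 0.731%. The pericyte, microglia, fibroblast, endothelial and neuron sums were, like Cspg4, higher in every Cx43KO library. For 3 of them the separation was narrow and hung on single genes in Cx43KO replicate 2. There Abcc9 gave 9.85 of 45.7 CPM, Esam 5.10 of 15.7 CPM and Camk2a 715 of 3032 CPM. The highest Cx43FL sums of these lists were 43.8, 12.6 and 2898 CPM. The neuron and endothelial sums were also highest in replicate 1. The part of any of these lists in the Cspg4 counts was not tested.

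**Figure D4:**
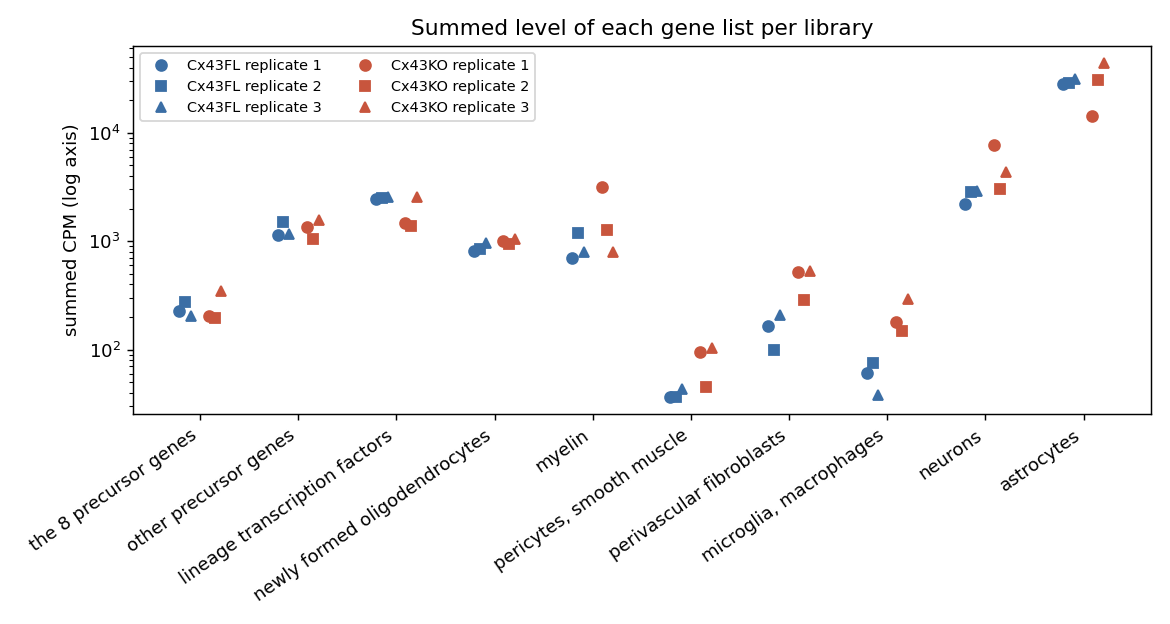
Summed CPM of 10 gene lists per library (log axis), leaving the 8 precursor genes out of the other lists. The precursor sums of both genotypes overlap (206 to 276 CPM in Cx43FL against 196 to 348 CPM in Cx43KO), whereas the Cx43KO sums of pericyte, fibroblast, microglia and neuron genes lie above the Cx43FL sums.

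The genes whose pattern over the 6 libraries was most like that of Cspg4 were Scrt1, Slc8a2, Recql4, C3ar1 and Faah. Likeness was the mean absolute difference between log2(CPM + 0.5) values, each centred on the mean of its gene, and ranged from 0.287 for Scrt1 to 0.430 for Faah. Scrt1, which encodes a zinc finger repressor of neurons, had 3.23, 4.91 and 4.36 CPM in Cx43FL against 60.7, 17.2 and 18.2 CPM in Cx43KO. C3ar1, the complement C3a receptor gene of myeloid cells, had at most 0.0659 CPM in Cx43FL against 5.90, 1.61 and 2.66 CPM in Cx43KO. In all 5, as in Cspg4, Cx43KO replicate 1 was the highest library, which follows from picking them for their likeness to Cspg4. With a pseudocount of 2 in place of 0.5, 1 of the 5 remained among the 5 nearest. Of the precursor genes, Sox10 was the nearest to Cspg4, at 1.37 and rank 4446 of the tested genes, and Olig2 and Neu4 were the farthest, at ranks 12899 and 13072.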

How the data were processed

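Polysomal mRNAs of 3 Cx43FL and 3 Cx43KO libraries were compared. The deposited values are raw counts of reads on Ensembl transcripts: the authors filtered reads with Eoulsan, mapped them on mm10 with STAR, removed reads matching more than once and counted them with HTSeq 0.5.3. Here 73157 transcripts were matched to 22086 genes (GENCODE vM21, GRCm38) and 2309 were not, with 1.60% to 1.78% of the counts. The transcript with the most counts stood for a gene, ties by identifier. The test was that of edgeR 4.0.16 under R 4.3.3 (TMM, filterByExpr, quasi-likelihood F test, Benjamini-Hochberg adjustment over 13545 genes). CPM are per M counts on tested genes after TMM. The standard error is the log2 fold change over the square root of F. DESeq2 1.42.0, limma 3.58.1 (loess offsets on GC content and length), other scalings, filters, the replicate block and leaving out each library were alternatives. Scripts were tested on simulated data.

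The precursor genes and the other lists were chosen with earlier results of these data known. Named are the 8 genes, the 2 highest and 2 lowest tested log2 fold changes of each list with its defining markers, and the 5 genes most like Cspg4. Igf2, Nfasc and the genes of the closing section stand outside this rule and were named after their values were seen. Some genes that the rule names are not reported here. No 2 libraries agreed within sampling noise (chi-square per degree of freedom 33.7 or more). Libraries with the same replicate number did not deviate together (correlations of -0.0547 to 0.0114).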

Additional observations from a re-analysis of the deposited data

How the results depend on the processing

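edgeR called 1 gene higher and 0 lower in Cx43KO. It called 2 higher with the replicate number as a block, 0 with at least 10 counts in every library, 0 with all transcripts of a gene added up, and 0 to 11 with each library left out, the 11 without Cx43KO replicate 1. DESeq2 called 99 higher and 14 lower with its prior, 118 and 19 without it, and 113 and 17 with it on all genes with any count, an alternative added after seeing the data.

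The log2 fold change of Cspg4 was 1.67 with DESeq2's prior and 1.94 with it on all genes, since the prior draws fold changes toward 0, and from 3.56 (without Cx43KO replicate 1) to 5.62 with each library left out. With at least 10 counts in every library, Cspg4 and Neu4 could not be tested. The signs of 5 genes depended on the setting. Pdgfra was at -0.11 with loess offsets on GC content and length, also added later. Gpr17 was at -0.14 with these offsets and at -0.11 with the replicate block. With each library left out, Olig1 ranged from -0.15 to 0.44, Sox10 from -0.70 to 1.14, Gpr17 from -0.75 to 0.60 and C1ql1 from -1.11 to 0.22. The cause of these changes was not tested. Olig2 and Neu4 stayed negative under every alternative run, and no adjusted p of the 7 genes other than Cspg4 fell below 0.05. The correlations between libraries of the same number do not pair them, and the block changed no other sign of the 8 genes. Low counts limit Cspg4 in Cx43FL, where 10 counts were seen in all.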

Other observations

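Some lineage genes differed widely between libraries of one genotype, and were picked after their values had been seen. Nkx6-1, a homeodomain factor, had 41 counts in Cx43KO replicate 1 and at most 1 in any other library. Gjb1, the connexin 32 gene of oligodendrocytes, had 109 counts in Cx43KO replicate 1 and 2 to 9 in the others. Zfp488, a cofactor of Olig2, had 360 counts in that library, 30 in Cx43KO replicate 2, 0 in Cx43KO replicate 3 and 51 to 119 in Cx43FL. Myrf, the factor that activates myelin genes, had 404, 340 and 8 counts in Cx43KO replicates 1 to 3 and 92 to 226 in Cx43FL. Dll3, a Notch ligand of precursors, had at most 9 counts in any library and was not tested, and Olig3 had 0 counts in all 6. Matn4, a matrix protein of precursors, reached 4, 2 and 0 counts in Cx43FL against 26, 0 and 8 in Cx43KO.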
